A study of Mus musculus with 2 samples.

Results

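The 9 genes Ren1, Agt, Ace, Agtr1a, Nr3c2, Hsd11b2, Nos1, Ptgs2 and Adrb1 of the renin-angiotensin-aldosterone system and the macula densa were taken by their gene names from 31821 gene names on each array, and 10 probes carry these names. Kidney RNA was compared between Cnnm2fl/fl;Six2-Cre mice (knockout) and Cnnm2+/+;Six2-Cre mice (control), both 2 months old. CNNM2 is a membrane protein of magnesium transport in the kidney, and the comparison was made to look for expression changes that go with the blood pressure of these mice. Both genotypes carried the Six2-Cre transgene. Six2-Cre recombines floxed alleles in nephron progenitors, which form the epithelium from the glomerulus to the distal tubule with the macula densa, whereas renin cells and the collecting duct stem from other lineages. How many mice gave each RNA sample is not given in the sources used here.

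Each of 2 arrays was hybridized with RNA of both genotypes in 2 colours. On array 1 the knockout RNA carried the dye Cy5 and the control RNA carried Cy3, and on array 2 the dyes were exchanged. It is not stated whether both arrays carried the same RNA. Each genotype was therefore taken to have 1 replicate, and no value below is supported by a test between the genotypes. Each SD given with a mean log2 ratio is that of the 2 arrays and covers labeling and hybridization only if the RNA was the same. A signal here is the scanner software's processed intensity in arbitrary units. A log2 ratio is knockout over control on the same array, so a negative value means a lower signal in the knockout. The signals of the 2 arrays were not scaled to each other here. Where both knockout signals are said to lie below or above both control signals, or the genotypes to overlap, differences between the arrays enter too. A gene is called measured where one and the same genotype, on each array, gave a signal that the scanner software called well above background, which held for 19708 genes and for 7 of the 9. Genes were counted as changed where the mean difference reached 2-fold and neither array went against it. A number of arrays this small limits the precision of every value below.

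Renin, encoded by Ren1, is released by juxtaglomerular cells of the afferent arteriole and cleaves angiotensinogen (Agt). Angiotensin-converting enzyme (Ace) then makes angiotensin II, which acts in the kidney mainly on the receptor encoded by Agtr1a and drives the adrenal gland to secrete aldosterone. Aldosterone binds the mineralocorticoid receptor (Nr3c2), which Hsd11b2 shields from glucocorticoids. The macula densa, a small plaque of tubule cells that senses salt, acts on renin release through neuronal nitric oxide synthase (Nos1) and cyclooxygenase 2 (Ptgs2), and sympathetic nerves act through the β1-adrenergic receptor (Adrb1).

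The sequences shown first are those behind the probes on which the renin and Adrb1 results rest, because renin has near-identical gene copies in some mouse strains and Adrb1 was read by 2 probes. Each probe is 60 bases long, 30 bases of each are printed 5′ to 3′ on the transcript strand as the scanner files give them, and capitals mark the letters AATAAA, the usual signal for polyadenylation. Positions are on the mm9 build, plus strand, as given for the whole probe.
Ren1 probe, chr1:135250782-135250841, bases 1 to 30: atggggcgtattcacaaagaggccttcctt
LOC100044656 probe, chr1:135255035-135255094, bases 1 to 30: ttaccaaggcaattttcactatgtgagcat
Ren2 probe, chr1:135256847-135257268, bases 19 to 48: aaggaaaaaccgAATAAAgatttcatgttt
Adrb1 brighter probe, chr19:56799215-56799274, bases 1 to 30: gttggaaggccattttgcacagtgttaggc
Adrb1 dimmer probe, chr19:56797242-56797301, bases 1 to 30: ctccttcttctgcgagctctggacttcggt
The letters AATAAA, searched on this strand only, stood in 12.6% of all probes and in 0 of the 10 probes of the 9 genes. The Ren1 probe starts at base 202 of its transcript, LOC100044656 at base 942 and Ren2 at base 1477, each counted in the transcript the design names for it. The brighter Adrb1 probe starts at base 2353 and the dimmer at base 380 of the same transcript. Whether a probe lies in a coding exon or an untranslated region was not determined here.

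Of the 7 genes measured, 0 were changed 2-fold, against 0.599% of all measured genes, and 0 changed 1.5-fold in the same direction on both arrays, against 2.06%. Ace alone had the same direction on both arrays, 1 of 7, where 27.7% of all measured genes did. It was higher in the knockout, as were 12.1% of all measured genes on both arrays, and 0 of the 7 were lower on both arrays, against 15.6%. The median log2 ratio of the 7 genes was −0.10, beside −0.01 over all measured genes, but it was 0.03 on array 1 and 0.11 on array 2, so the sign of the median is not that of either array alone. All 7 were well above background in every channel, so their ratios rest on measured signals on both sides. Since this is whole-kidney RNA, fewer cells of a type and less RNA per cell cannot be told apart.

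The other 6 genes pointed in opposite directions on the 2 arrays, which is to say that the higher signal went with a dye and not with a genotype. For Ren1, Agt and Hsd11b2 the Cy3 channel was the higher on both arrays, as it was for 33.6% of all measured genes. For Agtr1a, Nr3c2 and Adrb1 it was Cy5, as for 38.8%. The ratios of array 1 and array 2 were inversely related over all measured genes (Pearson's r = −0.51, Spearman's rho = −0.56), a description across genes and not across independent samples. A dye difference cancels in the mean of both arrays if it is the same on each, but widens their SD, which had a median of 0.50 for the 7 genes and 0.30 for all measured genes.

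**Figure D1:**
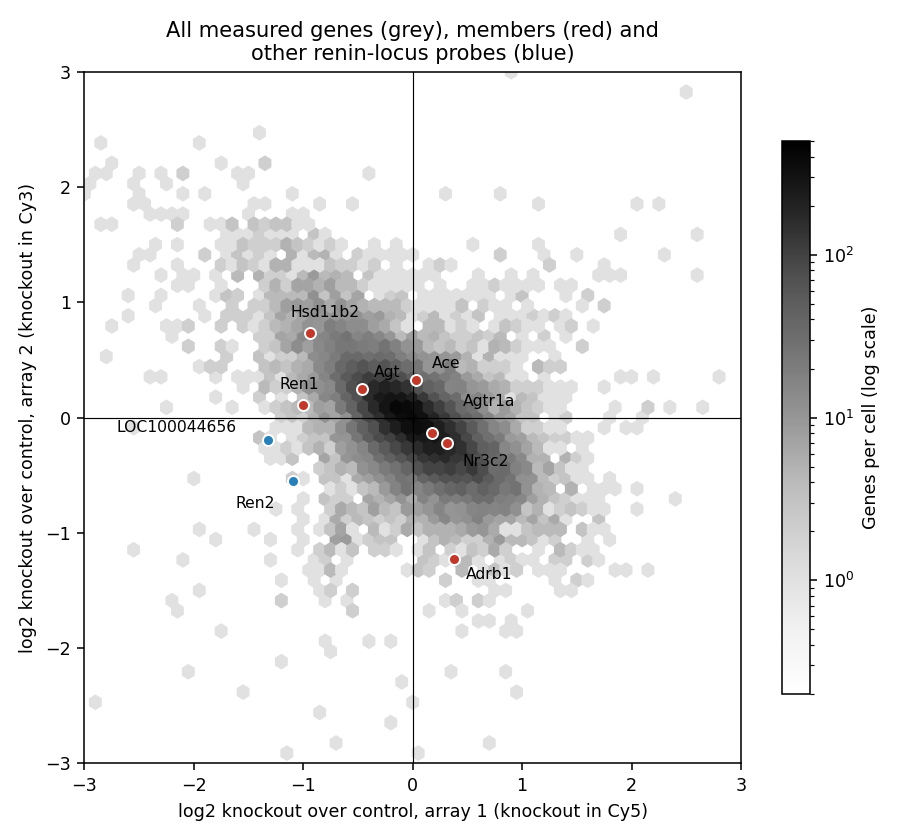
Each axis gives the log2 ratio, knockout over control, on one array, grey cells count all measured genes except 25 that lie outside the plot, red points are the 7 measured genes and blue points are the Ren2 and LOC100044656 probes. The grey cloud runs from upper left to lower right (r = −0.51), Ace is the red point with both values above 0, and both blue points have both values below 0.

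The deleted gene followed the labels on both arrays. Cnnm2 had signals of 626 in the knockout and 4620 in the control on array 1 and of 591 and 3247 on array 2, a mean log2 ratio of −2.67 ± 0.30 (SD of the arrays). Trpm6, the magnesium channel that the study went on to follow, had a mean of −1.40 ± 0.24, with −1.23 on array 1 and −1.58 on array 2. All 8 markers of the proximal tubule, the main tissue of the renal cortex, were measured, with a median log2 ratio of −0.02. Between 62.6% and 68.0% of spots were well above background in a channel, the Cy5 channel having more of them on both arrays.

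The Ren1 probe was lower in the knockout on array 1 only, whereas the Ren2 and LOC100044656 probes, described below, were lower on both arrays. On array 1 its signal read 275 for the knockout against 552 for the control, and on array 2 it read 425 against 394. The knockout was clearly the lower on array 1 and slightly the higher on array 2, so the genotypes overlapped. The log2 ratios were −1.004 and 0.11, with a mean of −0.45 ± 0.79 (SD of the arrays), which is the lowest mean of the 7 genes and rank 472 from the lowest among 19708. With normexp background correction and loess normalization the mean was −0.28.

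The Ren1 probe is followed on chromosome 1 by probes named LOC100044656 and Ren2, and 3 probes lie from the first to the last of them within the same stretch of mm9. The starts of the Ren1 and Ren2 probes are 6065 bases apart. LOC100044656, which the array design describes as similar to renin 2, lists a transcript that the Ren1 probe also lists. It was picked by its position once the Ren1 values were known, whereas Ren2 stood on the list of angiotensin enzymes and receptors. Ren2 is the duplicate renin gene that some mouse strains carry beside Ren1 and that C57BL6 mice lack. The study names a C57BL6/J background for its mice, and both probes have their place in the same stretch of mm9 as the Ren1 probe. On that background Ren2 and LOC100044656 would not stand for genes apart from Ren1, and the copies are nearly identical. Which renin gene each of the 3 probes reads was not checked by sequence, so the names of the probes are used here as labels only.

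Both of these probes were lower in the knockout on both arrays. The Ren2 probe had signals of 4132 in the knockout and 8794 in the control on array 1 and of 3628 and 5301 on array 2. Both knockout signals lay below both control signals. Its log2 ratios were −1.09 and −0.55, a mean of −0.82 ± 0.38 (SD of the arrays) or 0.567 times the control signal, and rank 110 from the lowest of 19708. The LOC100044656 probe had signals of 753 and 1878 on array 1 and of 1052 and 1200 on array 2, knockout first. Here too both knockout signals were below both control signals, but the difference on array 2 was small. The mean log2 ratio was −0.76 ± 0.80, from −1.32 on array 1 and −0.19 on array 2. Over the background corrections and sources of the ratios that were tried, the Ren2 mean ran from −0.82 to −0.78, the LOC100044656 mean from −0.76 to −0.65, and each was below 0 on both arrays in each of them. All 3 probes had their lower ratio on array 1, where the knockout carried Cy5.

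**Figure D2:**
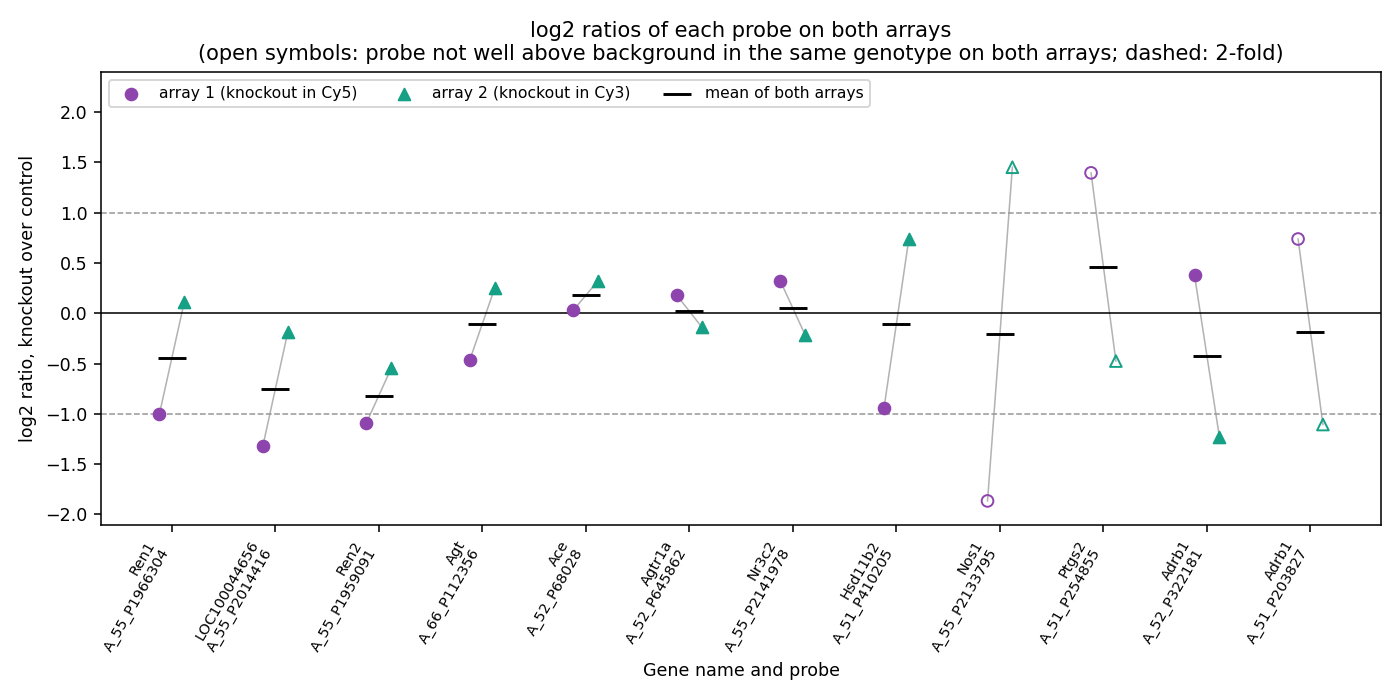
The log2 ratio, knockout over control, of each probe is shown on array 1 (circles) and array 2 (triangles), with a bar at the mean, open symbols for probes that were not measured and dashed lines at 2-fold. Ren2 and LOC100044656 are below 0 on both arrays and Ace above 0 on both, while the other 9 probes cross 0.

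Angiotensinogen, the substrate of renin, had Agt signals of 621 in the knockout and 855 in the control on array 1, and of 646 and 543 on array 2. The knockout was the lower on array 1 and the higher on array 2. The log2 ratios of −0.46 and 0.25 gave a mean of −0.10 ± 0.50 (SD of the arrays), inside the spread of the arrays and at percentile 24.5 of all measured genes. The probe lies at chr8:127083142-127083201 on the minus strand of mm9.

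Ace, the peptidase that makes angiotensin II, had signals of 1543 in the knockout and 1511 in the control on array 1, nearly equal, and of 1732 and 1382 on array 2. Both knockout signals were above both control signals. The log2 ratios were 0.03 and 0.33, with a mean of 0.18 ± 0.21 (SD of the arrays), a ratio of 1.13 at percentile 88.2 of all measured genes. The mean lay within the spread of the arrays, and 0.03 on array 1 is close to no difference. The probe lies at chr11:105850398-105850457 on the plus strand.

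Agtr1a, the main angiotensin II receptor of the mouse kidney, showed the smallest mean difference of the 7 genes. Its signals were 4705 in the knockout and 4161 in the control on array 1, and 3541 and 3897 on array 2. The higher signal was that of the Cy5 channel each time. The log2 ratios of 0.18 and −0.14 gave a mean of 0.02 ± 0.22 (SD of the arrays). Its probe lies at chr13:30474638-30474697 on the plus strand of mm9.

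The mineralocorticoid receptor gene Nr3c2 had dim signals of 43.6 in the knockout and 35.0 in the control on array 1, and of 37.9 and 44.1 on array 2. The genotypes overlapped. The mean log2 ratio was 0.05 ± 0.38 (SD of the arrays), from 0.32 and −0.22. The probe lies at chr8:79766370-79766429 on the plus strand.

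Hsd11b2, the enzyme that inactivates glucocorticoids in aldosterone-sensitive cells, was split most strongly by the dyes among the 7 genes. Its signals were 238 in the knockout and 457 in the control on array 1, and 461 and 276 on array 2. The Cy3 channels read nearly alike, and so did the Cy5 channels, whichever genotype they held. The log2 ratios of −0.94 and 0.74 gave a mean of −0.10 ± 1.19 (SD of the arrays), and 4.5% of all measured genes had a larger SD. Principal cells of the collecting duct, where Hsd11b2 is expressed, were read by 6 markers, and all 6 were measured. Of them, 1 was higher and 1 lower on both arrays, where 12.1% and 15.6% of all measured genes were. The log2 ratio of their summed signal was −0.36 on array 1 but 0.35 on array 2. Elf5, a transcription factor of these cells, was the highest of them, with log2 ratios of 1.16 and 0.29. It was the 1 past 1.5-fold, where 1% of all measured genes were past it and higher in the knockout. Aqp3, a water channel, was the lowest at −0.19. Their part in the Hsd11b2 values was not tested. The Hsd11b2 probe spans chr8:108046785-108047002 on the plus strand.

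**Figure D3:**
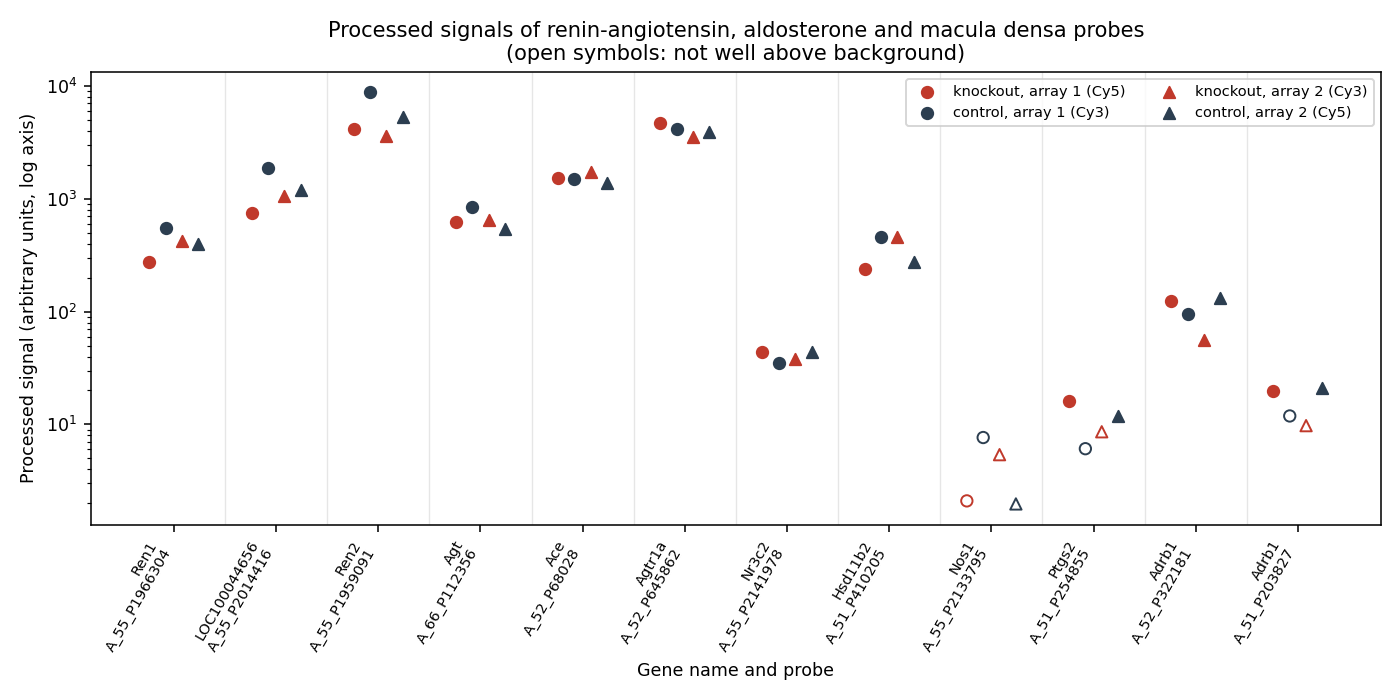
Processed signals on a log axis are shown for every probe, red for knockout and dark for control, circles for array 1 and triangles for array 2, with open symbols where a channel was not well above background. For Hsd11b2 the Cy3 signals of 457 and 461 lie above the Cy5 signals of 238 and 276, and Nos1 is open in all channels.

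The macula densa genes Nos1 and Ptgs2 could not be compared. Nos1, read by a probe at chr5:118402831-118402890, was well above background in 0 channels, with signals of 2.10 in the knockout and 7.66 in the control on array 1 and of 5.40 and 1.97 on array 2. No ratio is taken from these. Macula densa cells are a very small part of the kidney, and a transcript confined to them gives little RNA to a whole-kidney sample. Why this 1 probe stayed in the background was not tested. Ptgs2, at chr1:151954744-151954803, was read by 10 spots of the same probe on each array. The knockout spots of array 1, in Cy5, ran from 11.7 to 19.7 with a median of 16.1, and 10 of 10 were well above background. The control spots of array 1, in Cy3, ran from 2.52 to 10.4 with a median of 7.31, and 0 of 10 were. On array 2 the control spots, now in Cy5, ran from 9.96 to 15.6 (median 11.8) and 10 of 10 were well above background, while the knockout spots in Cy3 ran from 6.88 to 10.2 (median 8.98) and 0 were. Ptgs2 therefore rose above background in whichever genotype carried Cy5, and it was not counted as measured.

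Adrb1, the β-adrenergic receptor by which sympathetic nerves stimulate renin release, was measured by its brighter probe, with signals of 124 in the knockout and 95.8 in the control on array 1 and of 56.5 and 133 on array 2. The knockout was the higher on array 1 and the lower on array 2. The log2 ratios were 0.38 and −1.23, with a mean of −0.43 ± 1.14 (SD of the arrays), rank 518 from the lowest of 19708. The mean was −0.04 under normexp with loess, so its size depended on the background correction. The dimmer probe was well above background in the Cy5 channels only, with signals of 19.8 and 11.9 on array 1 and of 9.76 and 21.0 on array 2, knockout first. No ratio is taken from this probe, since its Cy3 signals were not well above background.

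Genes around these 9 were taken from 4 lists, on enzymes and receptors of angiotensin peptides, on signaling of renin cells, on the macula densa, and on the mineralocorticoid receptor with its target genes. Of their genes, 96 were measured, 10 higher (10.4%, against 12.1% of all measured genes) and 25 lower on both arrays (26.0%, against 15.6%), with a median log2 ratio of −0.07. The lists were chosen with earlier results of these data known, so nothing particular to them is read from these shares. The same limit and the same shares of all measured genes apply to the counts of each list and marker set below. They apply to the collecting duct markers above as well. Past 1.5-fold, 0 were higher, against 1% of all measured genes, and 5 were lower, against 1.06%, namely Ren2, Gja5, Adrb3, Trpm6 and Zbtb16. Trpm6 was the 1 past 2-fold. Of these genes, 20 had more than 1 measured probe, and 0 had another probe past 1.5-fold in either direction. Ren2, as said, may not be a gene apart from Ren1. Probes that do not carry these gene names were not searched. The paper, however, names Pde4d, a gene of renin cell signaling, among those raised in the knockout. The Pde4d probe read here was lower in the knockout on array 1 (log2 ratio −1.06). It was nearly equal between the genotypes on array 2 (0.04), with a mean of −0.51. The count of 0 higher thus holds for the probes read here, and the reason for the difference was not tested.

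Of 18 genes on the list of angiotensin enzymes and receptors, 13 were measured, 2 higher and 4 lower on both arrays, with a median of −0.03. Mas1, the receptor of angiotensin 1-7, was the highest, with signals of 296 and 203 on array 1 and of 244 and 165 on array 2, knockout first. Both arrays gave nearly the same log2 ratio, 0.54 and 0.56, with a mean of 0.55 ± 0.01 (SD of the arrays), which lies below 1.5-fold. Agtr1b and Agtr2, the other angiotensin II receptors, were among the 5 genes above background in no channel. Ren2 was the lowest of the list.

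Of 37 genes of renin cell signaling, 35 were measured, 2 higher and 9 lower on both arrays, with a median of −0.10. Of all measured genes, 12.1% were higher and 15.6% lower on both arrays. Gja5 encodes connexin 40, which couples renin cells and arterial endothelium, and had the lowest mean. Its signals were 55.0 in the knockout and 144 in the control on array 1 and 94.9 and 105.5 on array 2, so that both knockout signals were below both control signals, with log2 ratios of −1.39 and −0.15 and a mean of −0.77 ± 0.87 (SD of the arrays). Adrb3, the β3-adrenergic receptor gene, had signals of 126 and 165 on array 1 and of 92.0 and 162 on array 2, a mean of −0.60 ± 0.31. Gja5 is also an endothelial gene, and the 8 endothelial markers, all measured, together gave a log2 ratio of summed signals of −0.31 on array 1, against 0.06 on array 2. Of them, 1 was higher and 3 were lower on both arrays, with a median of −0.13. The 8 markers of smooth muscle and pericytes, cells closely related to renin cells, were all measured and had −0.30 and 0.05, with 1 higher and 0 lower on both arrays and a median of −0.15. Both sums were lower in the knockout on array 1 only, as was the Ren1 signal, which means that Cy3 was the higher on both arrays. That was so for 33.6% of all measured genes. The part of either cell type in the renin and Gja5 values was not tested.

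All 25 genes on the macula densa list were measured, 2 higher and 6 lower on both arrays, with a median of −0.05. Trpm6 was the lowest, but it is a channel of the distal convoluted tubule and not a macula densa gene. Without it, 24 genes were left, with 2 higher and 5 lower on both arrays, 0 past 1.5-fold and a median of −0.05. Slc9a4, a sodium-proton exchanger, was the highest at 0.22, with opposite directions on the arrays. Among all macula densa genes looked up, Nos1 and Ptgs2 were those not measured.

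All 23 genes on the list of the mineralocorticoid receptor pathway were measured, 4 higher and 6 lower on both arrays, with a median of −0.12. Sgk1, a kinase that aldosterone induces and that keeps the epithelial sodium channel at the membrane, was the highest. Its signals were 7255 in the knockout and 4548 in the control on array 1 and 4872 and 3704 on array 2, with log2 ratios of 0.67 and 0.40 and a mean of 0.53 ± 0.20 (SD of the arrays). Zbtb16, a transcription factor that steroid hormones induce, was the lowest. Its signals were 203 and 347 on array 1 and 165 and 329 on array 2, knockout first, with log2 ratios of −0.78 and −1.001 and a mean of −0.89 ± 0.16. Each of these target genes kept its direction on both arrays, and their directions were opposite.

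**Figure D4:**
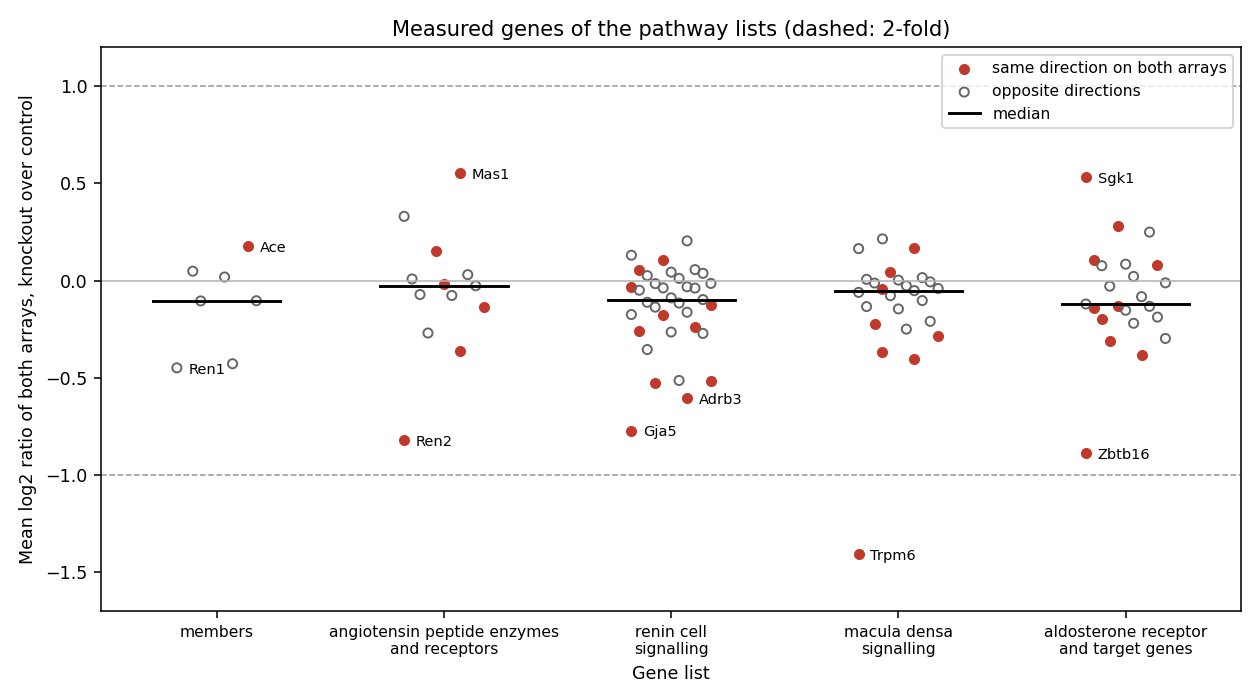
Points give the mean log2 ratio, knockout over control, of each measured gene of the 9 genes (members) and of the 4 lists, filled where both arrays had the same direction, with a line at the median and dashed lines at 2-fold. Trpm6 is the only point beyond the dashed lines, and the medians of the 4 lists run from −0.12 to −0.03.

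Markers of other tissue that a kidney sample can carry were read beside these genes. Of 8 adrenal cortex markers 3 were measured. Nr5a1 and Cyp21a1 were well above background in 4 channels, Star in 3 and Hsd3b1 in 1. Cyp11b1, Cyp11b2, Cyp11a1 and Mc2r were above background in no channel. Whether the samples held adrenal tissue was not tested. Star had the lowest mean of this list at −0.49, and the summed signal of the adrenal markers had log2 ratios of −0.06 and −0.05. Of 8 sympathetic nerve markers 4 were measured, with Dbh and Slc6a2 above background in no channel. The log2 ratio of their summed signals was 0.15 on array 1, against −0.06 on array 2. Nearly all of that sum was Ddc, with 15660 of 16010 in the knockout on array 1. Ddc alone had log2 ratios of 0.17 and −0.07, so the sum says little about the other nerve markers. Of 7 adipocyte markers 6 were measured, 2 higher (Cidec and Ucp1) and 2 lower (Cfd and Retn) on both arrays, with a median of −0.07. Their summed log2 ratios were −0.16 and −0.24, but most of the sum was Cfd, with 5473 of 7420 in the knockout on array 1. Cfd alone had log2 ratios of −0.23 and −0.32. Adrb3 is an adipocyte gene as well, and the part of adipocytes in its values was not tested.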

How the data were processed

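Kidney RNA of Cnnm2fl/fl;Six2-Cre and Cnnm2+/+;Six2-Cre mice was measured on 2 Agilent arrays of 2 colours with exchanged dyes. The authors deposited signal intensities of the scanner software (version 10.7.3.1 per the file headers, 10.5.1.1 in the submitters' processing notes), whose processed intensities are corrected for background and dye, and a log10 ratio, red over green. They also deposited a value table, which holds log10 ratios of knockout over control within 0.00492 of those of the scanner. Probe positions are those of mm9 in the files.

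From the deposited processed intensities, log2 ratios were computed and turned to knockout over control by the dyes in the labels. Control spots and marked spots (141 and 175 of 43020 gene spots) were left out, and spots of a probe were averaged. There were 0 saturated spots. For each of 31821 gene names, from 39416 probes, the brightest probe by mean log2 signal was used. The members and lists were chosen with earlier results of these data known. The rule for genes named in the text was every member, Cnnm2, Trpm6, the highest and lowest measured gene of each list and every list gene past 1.5-fold. Of the genes under this rule, 1 is not reported here. Genes named beyond this rule, among them those above background in no channel and LOC100044656, were picked after their values were seen. The lists of immune, red blood cell, medullary interstitial, clock and sex-linked genes were read as well, and their medians were 0.00, −0.19, −0.09, −0.10 and 0.13.

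Alternatives were normexp (limma 3.58.1, R 4.3.3; offset 50) with loess, background-subtracted signals (floor of 1) with median centring, loess without background correction, both sets of deposited log10 ratios, other limits on dim probes, marked spots kept, the median over probes, each array alone, 2-fold on each array and the methods' t-test at a threshold of 0.1. The Ren2 probe in place of Ren1 was an alternative chosen after seeing the data. Scripts were tested on simulated data and ran in Python 3.11.15 with matplotlib 3.10.9, scipy 1.17.1, pandas 2.3.3 and numpy 2.4.6. The blood pressure, renin activity and protein measurements were not analysed here.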

Additional observations from a re-analysis of the deposited data

How the results depend on the processing

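None of the 7 measured genes changed the sign of its mean under the alternatives that kept both arrays, and 63 of 63 such values moved by no more than the SD of the arrays. On each array alone Ptgs2 counted as measured too, and 1 to 2 of the then 8 genes were past 2-fold and 2 to 3 past 1.5-fold, with a median from −0.015 to 0.104. The median was −0.04 under normexp with loess. With the Ren2 probe read as renin, 1 gene passed 1.5-fold and 2 pointed the same way on both arrays. The methods' t-test is paired over 2 arrays that count here as 1 replicate, so it says nothing about stability. By it, 0 of the 7 genes had an unadjusted p under 0.05 or under 0.1, and 36 of all measured genes passed its threshold and fold, 0 after Benjamini-Hochberg. The 118 genes past 2-fold became 15 under normexp with loess, 24 without background correction, 411 with no limit on dim probes, 64 with both genotypes above background, and 1458 or 1731 on 1 array. The 406 past 1.5-fold became 105, 167, 1395 (no limit), and 3643 or 4569. The cause was not tested. No paired analysis was possible because the replicate numbers mark arrays and not mice, other than that t-test over arrays. Signal over background limited Nos1, Ptgs2 and the dimmer Adrb1 probe.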
